A study of Homo sapiens with 6 samples.

Results

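The genes of glycolysis, glucose uptake and the pyruvate gate were described in HCT116 stem cells (HCT116SCs) with and without PSCA siRNA. The set holds 43 of the 58735 genes in the deposited table: glucose transporters, glycolytic enzymes with their isoforms, the enzymes that set the level of fructose 2,6-bisphosphate, lactate dehydrogenases, lactate exporters, and the proteins that govern entry of pyruvate into the mitochondrion. The members were found by gene name, and all 43 were present. The set was chosen by pathway and with the FPKM differences between siPSCA and NC in these same libraries already known, so their levels, fold changes and calls are given as a description and carry no test of their own.

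The HCT116SCs are CD44+CD326+ cells sorted from HCT116, an established human colorectal cancer line, and grown as spheres in serum-free medium with EGF and bFGF at 20 ng/mL each. The comparison asked which transcripts differ once PSCA, a surface protein of the Ly6 family, is targeted: 3 libraries came from cells given negative control (NC) siRNA, labelled wild type, and 3 from cells given PSCA siRNA (siPSCA), labelled PSCA knockdown, all harvested 48 h after transfection. The sources used here do not say which of the listed PSCA siRNA sequences was transfected, and the replicates siPSCA 2 and siPSCA 3 have titles that carry another number after HCT while their other labels give HCT116. Nothing states that replicates were separate cultures, so every p-value measures only the spread between these libraries, which may be technical.

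Glycolysis splits glucose into pyruvate in the cytosol and yields ATP without oxygen. Most of its steps can be run by several isoforms, each from its own gene, and some of these genes carry binding sites for hypoxia-inducible factor (HIF), the oxygen-responsive transcription factor. Pyruvate is then reduced to lactate, which leaves the cell through monocarboxylate transporters, or is imported by mitochondria and oxidised by pyruvate dehydrogenase, which the PDK kinases switch off and PDP phosphatases switch on.

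Each library held 16099716 to 17302219 reads on genes, and 1 read on a gene of 1 kb was worth an FPKM of 0.0549 to 0.0595. The libraries of the siPSCA group lay close together, with root mean square log2 differences of 0.254 to 0.268 between pairs, whereas NC 3 lay 0.390 and 0.410 from the other NC libraries, which were 0.268 apart. NC 3 differed from them along base composition: across 13792 genes the Spearman correlation of GC content with its difference from NC 1 and NC 2 was -0.56, and it was -0.58 across the 40 tested members. Values without this library or with the GC trend removed are given for some of the members and lists that they moved. PSCA held 4, 12 and 15 reads in NC and 9, 9 and 7 in siPSCA, which does not tell the groups apart. The sorting markers CD44 (FPKM 79.2 to 87.5 in NC and 59.6 to 62.4 in siPSCA) and EPCAM, the gene of CD326 (93.3 to 123), were present, as were the epithelial genes CDH1, KRT8, KRT18, KRT19, CLDN4 and CLDN7. VIL1, a marker of intestinal epithelium, was at or below an FPKM of 0.0407, and the leukocyte gene CD3E was at 0 in all 6 libraries.

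To show the stretch of DNA next to which these transcripts start, promoter windows of 250 bases before to 50 after each start site were taken from RefSeq on GRCh38.p14. Windows were found for 39 of the 43 members, and none for SLC2A3, PFKFB2, SLC16A1 and PDP1. Capitals mark the core of the HIF binding motif, ACGTG or GCGTG, on either strand, so that CACGT and CACGC are the same letters on the other strand and the palindrome CACGTG, also the E-box bound by MYC, counts as a match on both. For the start site shown, only the longest stretch before it that lies in no GENCODE 29 exon is printed. LDHA and HK2 have 2 start sites and G6PC3 has 3, and 1 is shown for each. The site of LDHA shown is the upstream one, whose stretch holds the palindrome, whereas that of the other site is longer (165 bases) and holds 1 match and no palindrome. The stretches of HK2, PGK1, GAPDH and PFKFB4 lie inside the wider GENCODE 29 bounds of these genes, in intronic sequence of their longer transcripts. HK2, PGK1, LDHA, GAPDH and PFKFB4 are examples of members lower in siPSCA, and G6PC3 and PDHB of members higher and not called, respectively. They do not stand for all members: every stretch shown holds a match, whereas those of PDK1 and HK1, which were also lower, hold none. The full windows of PDK1 and HK1 do hold matches, outside these stretches.
HK2, chr2:74834920-74835169, plus strand: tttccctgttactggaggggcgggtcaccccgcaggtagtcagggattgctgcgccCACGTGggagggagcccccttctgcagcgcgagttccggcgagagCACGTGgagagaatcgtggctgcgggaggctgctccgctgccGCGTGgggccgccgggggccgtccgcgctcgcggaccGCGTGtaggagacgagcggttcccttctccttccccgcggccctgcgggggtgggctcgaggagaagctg
PGK1, chrX:78103998-78104173, plus strand: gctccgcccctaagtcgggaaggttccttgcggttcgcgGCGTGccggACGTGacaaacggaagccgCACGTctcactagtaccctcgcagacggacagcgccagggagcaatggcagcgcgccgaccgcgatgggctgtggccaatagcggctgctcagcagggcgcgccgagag
LDHA, chr11:18394313-18394387, plus strand: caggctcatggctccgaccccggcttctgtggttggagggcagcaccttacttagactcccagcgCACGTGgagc
GAPDH, chr12:6535142-6535263, plus strand: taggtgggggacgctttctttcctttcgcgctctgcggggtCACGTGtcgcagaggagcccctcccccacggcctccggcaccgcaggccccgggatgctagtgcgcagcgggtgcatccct
PFKFB4, chr3:48556924-48556982, minus strand: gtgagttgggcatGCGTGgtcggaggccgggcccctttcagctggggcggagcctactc
G6PC3, chr17:44070485-44070734, plus strand: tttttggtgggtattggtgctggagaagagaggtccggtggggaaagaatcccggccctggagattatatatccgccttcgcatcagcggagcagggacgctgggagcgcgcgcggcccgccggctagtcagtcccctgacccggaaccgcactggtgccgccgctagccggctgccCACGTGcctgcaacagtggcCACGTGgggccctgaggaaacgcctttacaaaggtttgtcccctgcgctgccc
PDHB, chr3:58433858-58434082, minus strand: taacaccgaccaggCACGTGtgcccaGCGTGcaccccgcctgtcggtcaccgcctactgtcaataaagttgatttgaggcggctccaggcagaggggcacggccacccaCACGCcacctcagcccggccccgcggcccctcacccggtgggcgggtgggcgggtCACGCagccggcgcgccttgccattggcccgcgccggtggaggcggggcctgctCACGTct

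The core was present in the window of 37 of 39 members (94.9%), beside 71.1% of 9098 tested genes with a window and 52.4% of all 27305 genes with one. A gene with several start sites has several windows and so more room for a match. Since nearly every member held it, the core could hardly differ within the set: it stood in 16 of 17 members that were lower, in 9 of 9 that were lower by a log2 fold change of 1 or more, in all 3 that were higher and in 18 of 19 that were not called or not tested. The ACGTG form alone was present in 23 of 39 members (59.0%) and in 32.9% of tested genes. It stood in 11 of 17 members that were lower, in 8 of 9 that were lower by 1 or more, in all 3 that were higher and in 9 of 19 that were not called or not tested, a description with no test. The palindrome was present in 10 of 39 members (25.6%) and in 12.9% of tested genes. PDHB, which was not called, and HK2, which was lower, each held 6 matches in the windows shown. A match is a description of the letters and not a site shown to be bound.

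A linear model (limma) was fitted to log2(FPKM + 1) over the 13796 genes whose mean FPKM reached 1, and a gene was called at a Benjamini-Hochberg adjusted p under 0.05. On this scale the changes of low genes are understated. Of the 43 members, 40 passed the minimum, and HKDC1, TIGAR and PDK4 did not. In siPSCA 18 of the 40 (45.0%) were called lower, beside 24.2% of all tested genes, and 3 (7.5%) were called higher, beside 26.6%. A fall of at least 1 on the log2 scale was seen in 10 members, beside 1.54% of all tested genes. All 3 siPSCA libraries lay below all 3 NC libraries in 21 members, beside 30.8% of all tested genes. Because the same contrast chose the members, nothing is read from these shares. The median log2 fold change was -0.18 over the 40 members and 0.01 over all tested genes. All members together took 2.21%, 2.22% and 2.24% of the reads in NC and 1.48%, 1.44% and 1.42% in siPSCA. In bulk RNA, fewer cells of a type and less RNA per cell cannot be told apart.

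**Figure D1:**
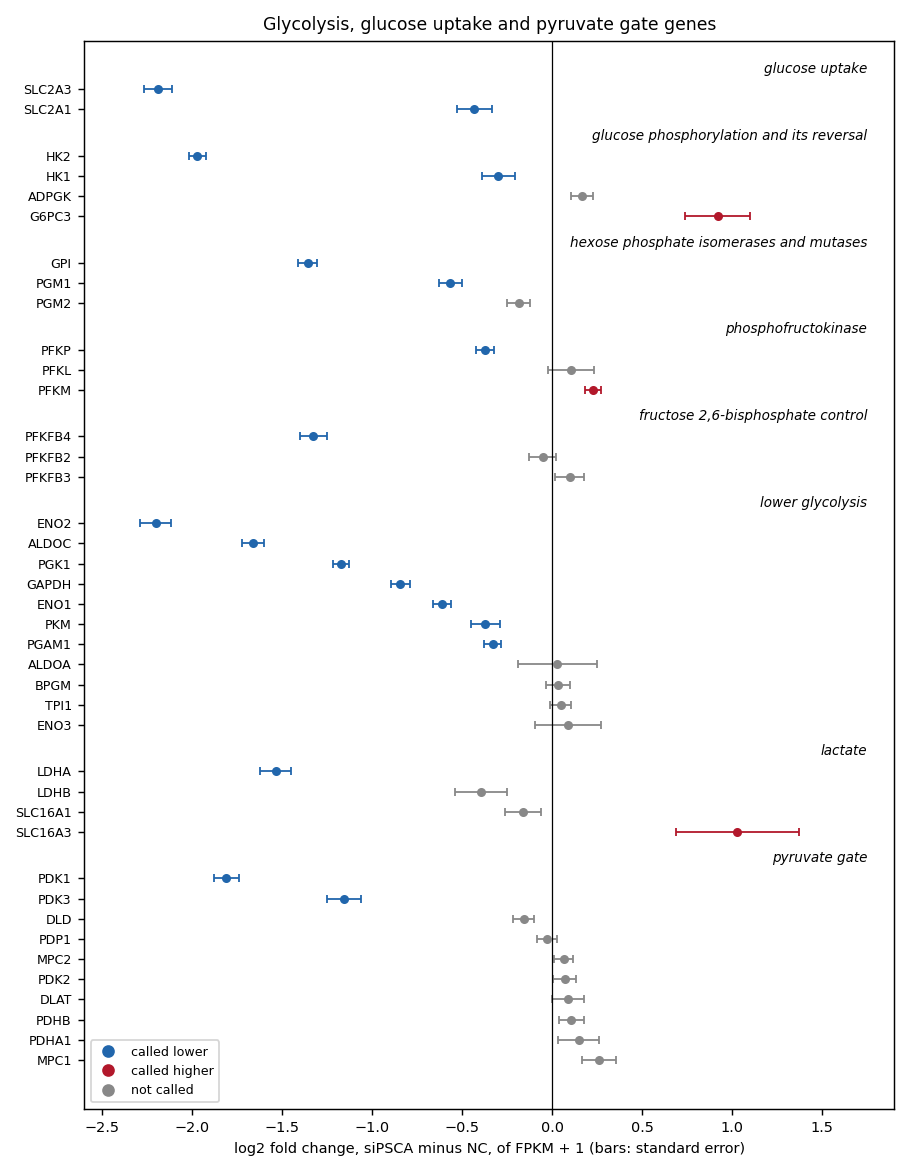
Log2 fold change (siPSCA minus NC, log2 of FPKM + 1) of the 40 tested members, ordered by role, with the standard error from limma as bars and 3 libraries per group. The 18 members called lower are blue, the 3 called higher are red and the other 19 are grey. Falls run down to -2.21 (ENO2), and every role group holds at least 1 member called lower.

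Both glucose transporters fell; positions here and throughout are on GRCh38, as in the deposited table. SLC2A3 (GLUT3, ENSG00000059804, chromosome 12, 7919230 to 7936275, minus strand), a high-affinity transporter, had FPKM values of 17.6, 18.5 and 20.6 in NC and 3.20, 3.19 and 3.68 in siPSCA. The groups lay far apart, and siPSCA held 17.7% of the NC mean (log2 fold change -2.19, SE 0.08). SLC2A1 (GLUT1), the transporter that most cells use for basal uptake and the more abundant of the pair, had 82.2, 80.9 and 64.7 in NC and 55.5, 55.1 and 56.3 in siPSCA, a log2 fold change of -0.43 (SE 0.10) with no overlap. The share of SLC2A3 in their summed FPKM went from 20.1% ± 3.51 (SD, n = 3) to 5.68% ± 0.393 (SD, n = 3), and the sum itself was 62.2% of NC.

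At the entry of glucose, HK2 (ENSG00000159399, chromosome 2, 74833981 to 74893359, plus strand), the inducible hexokinase of many tumours, fell from FPKM 45.2, 47.2 and 47.9 in NC to 11.2, 11.2 and 11.1 in siPSCA. The siPSCA libraries differed from each other by little, and the fall was 4.19-fold (log2 fold change -1.97, SE 0.05). HK1, the widely expressed hexokinase, moved less, with 25.2 ± 2.90 (SD, n = 3) in NC and 20.2 ± 1.09 in siPSCA (log2 fold change -0.30), and its call was lost in 4 of 6 fits made without 1 of the libraries and with the replicate number as a block. HK2 thus made up 64.9% ± 2.02 of hexokinase FPKM in NC and 35.4% ± 1.11 in siPSCA, and HK1 was the larger of the pair in every siPSCA library and the smaller in every NC library. HKDC1, a further hexokinase, stayed at 12 to 20 reads in each library. ADPGK, which phosphorylates glucose with ADP, was not called (log2 fold change 0.16, 95% interval 0.02 to 0.31).

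G6PC3, the ubiquitous glucose-6-phosphatase that reverses the hexokinase step, rose. It had FPKM values of 5.94, 5.24 and 3.21 in NC and 9.81, 10.1 and 9.31 in siPSCA, so that the groups did not overlap although NC 3 lay below the other NC libraries. The log2 fold change was 0.92 (SE 0.18), and it was 0.70 without NC 3.

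Among the isomerases and mutases of hexose phosphates, GPI (ENSG00000105220, chromosome 19, 34359480 to 34402413, plus strand), which turns glucose phosphate into fructose phosphate, fell from FPKM 124, 124 and 114 to 47.2, 45.1 and 46.9. This was 38.4% of NC (log2 fold change -1.36, SE 0.05). PGM1, the main phosphoglucomutase linking glycolysis to glycogen, fell by 0.57 on the log2 scale, and PGM2, which acts mostly on pentose phosphates, was not called (-0.19, 95% interval -0.34 to -0.03).

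Phosphofructokinase commits the sugar to glycolysis, and its 3 subunit genes did not move together. PFKP, the platelet-type subunit and the most abundant of them, had 60.2, 59.8 and 59.4 in NC and 47.9, 46.1 and 43.7 in siPSCA and fell (-0.38, SE 0.05). PFKM, the muscle-type subunit, had 20.5, 20.8 and 19.7 in NC and 24.3, 24.0 and 23.6 in siPSCA and rose (0.22, SE 0.05). PFKL, the liver-type subunit, had 24.5, 24.7 and 17.8 in NC and 25.0, 23.6 and 22.8 in siPSCA, overlapped between groups and was not called (0.10, 95% interval -0.21 to 0.42). The summed FPKM of the 3 subunits was 91.4% of NC, and the share of PFKP went from 58.4% ± 2.49 to 49.0% ± 0.420. The exons of PFKM overlap those of SENP1 on the opposite strand over 8.58% of their bases, and without a statement on strand such reads cannot be told apart.

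The bifunctional PFKFB enzymes make and degrade fructose 2,6-bisphosphate, an allosteric activator of phosphofructokinase. PFKFB4 (ENSG00000114268, chromosome 3, 48517684 to 48562015, minus strand) had 21.5, 20.0 and 18.0 in NC and 7.49, 7.28 and 7.06 in siPSCA. It fell 2.72-fold (log2 fold change -1.33, SE 0.07). PFKFB3, the isoform with the strongest kinase activity, had 8.89, 9.19 and 7.51 in NC and 9.39, 8.89 and 9.18 in siPSCA. PFKFB2, known from heart, had 2.32, 2.60 and 2.64 in NC and 2.50, 2.26 and 2.41 in siPSCA. Both overlapped between groups and were not called, with log2 fold changes of 0.10 (95% interval -0.10 to 0.29) and -0.05 (-0.23 to 0.13). PFKFB4 was the most abundant of the 3 in every NC library (64.2% ± 1.39) and PFKFB3 in every siPSCA library (48.6% ± 0.523). TIGAR, a phosphatase that lowers the same activator, was under the minimum with 36 to 100 reads. Its level is uncertain, since 42.6% of its exonic bases also belong to AC008012.1, a gene model on the same strand.

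**Figure D2:**
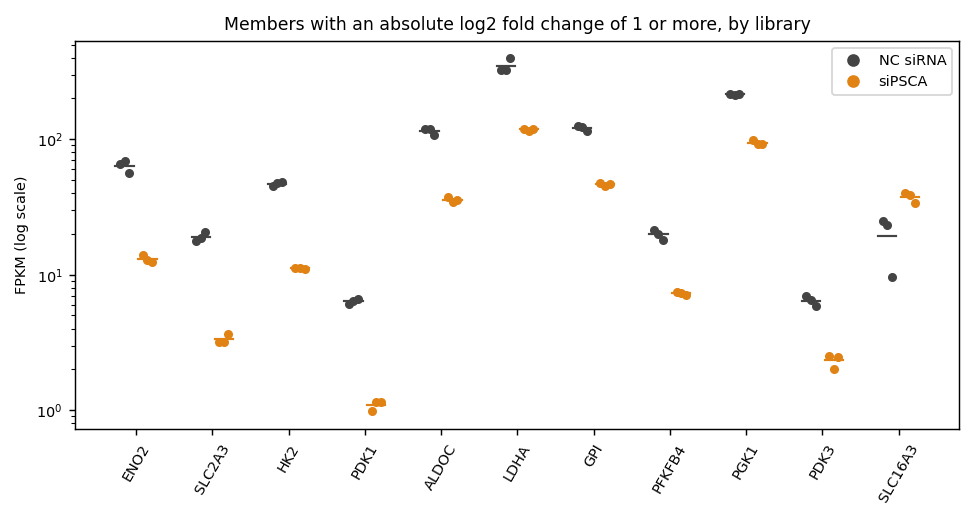
FPKM on a log scale in each of the 6 libraries for the 11 members with an absolute log2 fold change of at least 1. Each point is a library and each bar the mean of 3. In 10 of them the siPSCA libraries lie below all NC libraries, and in SLC16A3 they lie above, with NC 3 at 9.59 below the other NC libraries.

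In lower glycolysis 7 of 11 genes (63.6%) fell and none rose, beside 24.2% and 26.6% of all tested genes. The other 4 were not called. ALDOC (ENSG00000109107, chromosome 17, 28573115 to 28577264, minus strand), an aldolase best known from brain, had 119, 119 and 108 in NC and 37.4, 34.2 and 35.4 in siPSCA, a fall to 31.0% of NC (log2 fold change -1.66, SE 0.06). ALDOA, the aldolase of muscle and most proliferating cells, was listed with only 3.07, 2.67 and 1.29 in NC and 2.32, 2.54 and 2.07 in siPSCA and was not called (0.03, 95% interval -0.50 to 0.56). Its level is uncertain, since 42.3% of its exonic bases also belong to AC093512.2, a gene model on the same strand, and reads on shared exons may have been counted for neither.

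GAPDH, which oxidises glyceraldehyde phosphate and is widely used as a reference gene, was the most abundant member. It had FPKM values of 1460.4, 1477 and 1356 in NC and 805, 782 and 800.3 in siPSCA, which did not overlap. The fall was 1.80-fold (log2 fold change -0.85, SE 0.05). Its 62 annotated pseudogenes held 202 to 408 reads per library in all, beside 40599 to 76667 on GAPDH itself. PGK1 (ENSG00000102144, chromosome X, 77910739 to 78129296, plus strand), the first ATP-forming enzyme of the pathway, fell from 217, 213 and 214 to 98.2, 92.3 and 92.9 (log2 fold change -1.18, SE 0.04).

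Among the enolases, which form phosphoenolpyruvate, ENO2 (ENSG00000111674, chromosome 12, 6913745 to 6923698, plus strand), the neuronal isoform, had 65.4, 69.5 and 56.7 in NC and 13.9, 12.8 and 12.4 in siPSCA. The mean fell 4.90-fold (log2 fold change -2.21, SE 0.09). On the log2(FPKM + 1) scale this was the largest fall, with that of SLC2A3 within its standard error, whereas by the ratio of mean FPKM the falls of PDK1 and SLC2A3 (5.81-fold and 5.63-fold) were larger. ENO1, the common isoform and by far the more abundant, had 657, 665 and 635 in NC and 444, 427 and 410.0 in siPSCA and fell by 0.61. ENO3, the muscle isoform, had 2.90, 3.08 and 1.54 in NC and 2.73, 2.54 and 2.67 in siPSCA, overlapped and was not called (0.09, 95% interval -0.36 to 0.53). The share of ENO2 in enolase FPKM went from 8.87% ± 0.631 to 2.94% ± 0.0635, and the enolase sum was 61.6% of NC.

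The remaining steps of lower glycolysis moved less. PGAM1, a phosphoglycerate mutase, and PKM, the pyruvate kinase gene, fell by 0.33 and by 0.37 on the log2 scale. TPI1, which interconverts the triose phosphates, had 272 ± 3.28 (SD, n = 3) in NC and 281 ± 17.1 in siPSCA and was not called (95% interval -0.09 to 0.18), although it stands between ALDOC and GAPDH in the pathway. BPGM, which makes bisphosphoglycerate, was not called either (95% interval -0.13 to 0.19). FPKM per gene does not separate the PKM splice forms.

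At the lactate step, LDHA (ENSG00000134333, chromosome 11, 18394388 to 18408425, plus strand), the subunit that favours lactate formation, had 322, 322 and 395 in NC and 119.9, 115 and 119 in siPSCA. The groups did not overlap, and siPSCA held 34.1% of NC (log2 fold change -1.54, SE 0.09). LDHB, the subunit of oxidative tissues, had 14.8, 14.3 and 18.5 in NC and 13.9, 9.87 and 11.8 in siPSCA, did not overlap between groups but was not called (-0.40, 95% interval -0.74 to -0.05), and 33.4% of its exonic bases lie in another gene model on the same strand, AC010197.2. The LDHB share of lactate dehydrogenase FPKM went from 4.37% ± 0.10 to 9.10% ± 1.27, against a sum at 35.9% of NC.

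Of the lactate exporters, 1 was called higher and the other was not called. SLC16A3 (MCT4), the exporter of highly glycolytic cells, had 25.1, 23.2 and 9.59 in NC and 40.0, 38.8 and 33.6 in siPSCA, and was called higher (1.03, SE 0.34). The size rests in part on NC 3: without that library the log2 fold change was 0.61, and with the trend on GC content and length removed it was 0.54 and not called. Leaving out any 1 siPSCA library also ended the call. The call of SLC16A3 was kept in 10 of 16 alternatives. Among these was the trend removed without NC 3, a fit chosen after seeing the data, where the log2 fold change was 0.27. CSNK1D, which overlaps 5.36% of its exonic bases on the opposite strand, held 1948 to 2242 reads in NC and 3473 to 3509 in siPSCA, and its part in the SLC16A3 value was not tested. SLC16A1 (MCT1), the widespread monocarboxylate carrier, had 27.7, 28.5 and 35.8 in NC and 28.0, 26.8 and 26.6 in siPSCA, overlapped and was not called (-0.16, 95% interval -0.41 to 0.08).

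At the pyruvate gate, 2 of 10 tested genes (20.0%) fell and none rose, beside 24.2% and 26.6% of all tested genes. The other 8 were not called. Both that fell encode kinases that switch off pyruvate dehydrogenase. PDK1 (ENSG00000152256, chromosome 2, 172555373 to 172608669, plus strand) had 6.07, 6.40 and 6.59 in NC and 0.981, 1.15 and 1.15 in siPSCA, from 1517 to 1690 reads and from 247 to 312 reads, a fall of 5.81-fold in mean FPKM (log2 fold change -1.81, SE 0.07). PDK3 (ENSG00000067992, chromosome X, 24465221 to 24541862, plus strand) fell from 6.91, 6.53 and 5.86 to 2.52, 2.00 and 2.48 (-1.16, SE 0.09).

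The other kinases of the family were not called or not tested. PDK2, the widely expressed kinase, had 3.22, 3.38 and 3.36 in NC and 3.52, 3.30 and 3.79 in siPSCA (log2 fold change 0.07, 95% interval -0.09 to 0.23), and SAMD14 on the opposite strand covers 38.6% of its exonic bases. PDK4, the kinase induced by fasting, lay under the minimum with 53 to 99 reads. Summed PDK FPKM was 47.3% of NC. In NC, PDK1 (37.5% ± 1.71) and PDK3 (38.0% ± 2.97) made up most of it, and in siPSCA PDK2 held the largest share (44.1% ± 0.166, from 19.6% ± 0.475).

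The opposing phosphatase PDP1 was the most abundant gene of the gate and had 195, 194 and 213 in NC and 193, 193 and 203 in siPSCA, with a 95% interval of the log2 fold change of -0.16 to 0.10. The pyruvate dehydrogenase subunits among the members were not called with all 6 libraries. Their log2 fold changes were 0.15 for PDHA1 and 0.10 for PDHB (the decarboxylase), 0.08 for DLAT (the acetyltransferase) and -0.16 for DLD (the dehydrogenase shared with other complexes). Without NC 3 PDHA1, PDHB and DLAT were called higher, at 0.27, 0.16 and 0.18. PDHX, a further subunit that is not a member, was called lower with all 6 libraries (log2 fold change -0.69). MPC1 and MPC2, which together form the mitochondrial pyruvate carrier, had 0.26 (95% interval 0.03 to 0.48) and 0.06 (-0.07 to 0.19), and MPC1 was called higher at 0.36 without NC 3. MPC2 shares 22.5% of its exonic bases with DCAF6 on the opposite strand, and PDHA1 21.3% with MAP3K15.

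**Figure D3:**
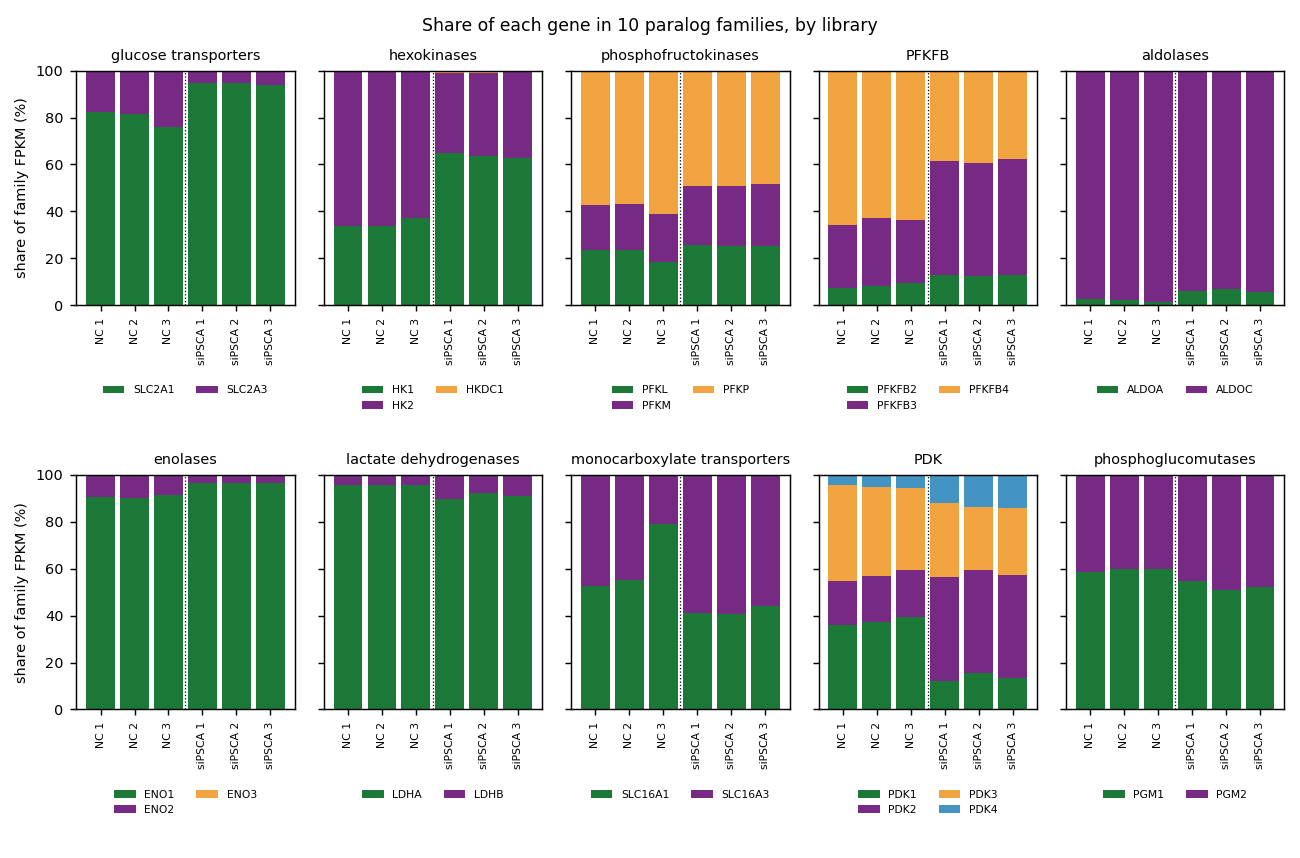
Share (%) of each gene in the summed FPKM of 10 paralog families, 1 bar per library, with the 3 NC libraries left of the dotted line and the 3 siPSCA libraries right of it. HK2, PFKFB4 and PDK1 hold smaller shares in every siPSCA library than in any NC library, and HK1, PFKFB3 and PDK2 hold larger ones.

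Base composition was set beside the changes. Across all 13792 tested genes with a GC value, GC content and log2 fold change had a Spearman correlation of 0.66, and across the 40 tested members it was 0.05; these are descriptions, and the points share the same 6 libraries. Median GC content was 52.9% in the members called lower, 51.5% in those called higher and 44.6% in the others. When a smooth trend on GC content and gene length was removed from each library before the fit, 21 members were called lower, beside 18.4% of all genes, and 8 were called higher, beside 21.2%. All 18 members first called lower were called lower again. PFKL (-0.45), TPI1 (-0.31) and LDHB (-0.40) were added to them.

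Of the members called higher after the trend was removed, 6 belonged to the pyruvate gate. PDP1 (0.22), PDHB (0.20), DLAT (0.23), DLD (0.13), MPC1 (0.43) and MPC2 (0.23) were called higher, together with G6PC3 (0.84) and PFKM (0.15), while SLC16A3 was not. DLD was not called when the replicate block was added to this fit. The direction of DLD, PGM2, PDP1, PFKFB2, PFKL, PFKFB3, TPI1, ALDOA, ENO3 and PDK2 differed between the fits. Without NC 3 and with the trend left in, 7 members were called higher: G6PC3, PFKM, SLC16A3, PDHA1, PDHB, DLAT and MPC1. In that fit 4014 of all 13796 tested genes were called higher and 3411 lower. The members called lower remained the same 18. Among members that were not called, PFKL then stood at -0.05, PFKFB3 at 0.02, ALDOA at -0.22, ENO3 at -0.13, SLC16A1 at -0.05 and PDP1 at 0.01, so that the sign of PFKL, ALDOA, ENO3 and PDP1 also turned without this library. The 10 members that fell by at least 1 kept log2 fold changes of -2.46 (ENO2) to -1.01 (PDK3) after the trend was removed, and that of GAPDH then came to -1.26. Removal of the trend also moved SLC2A1 to -0.66, PFKP to -0.71 and PGAM1 to -0.51.

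**Figure D4:**
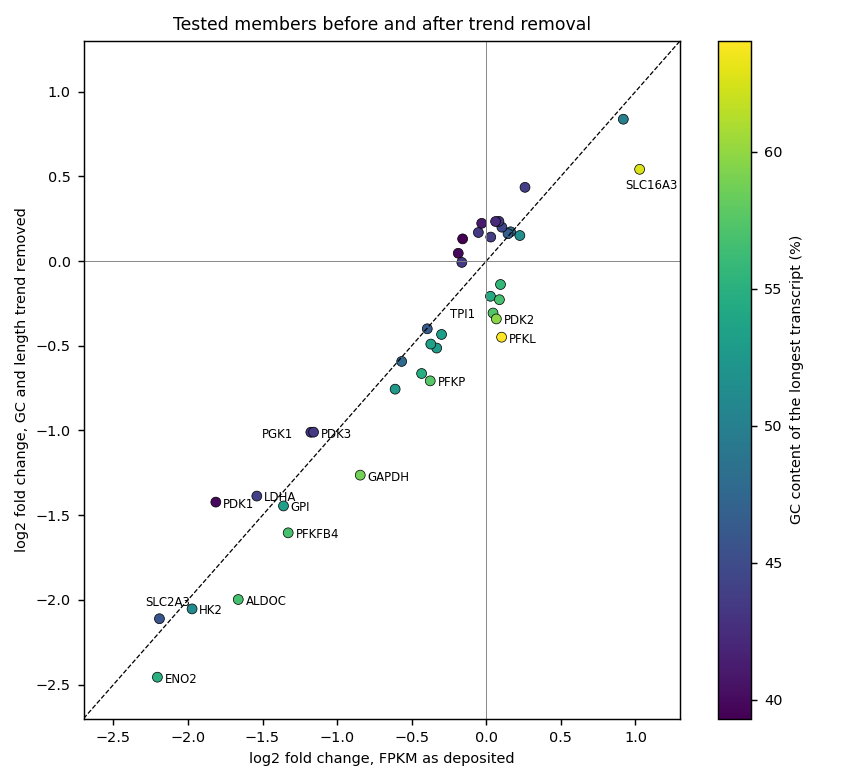
Log2 fold change of the 40 tested members from the FPKM as deposited (horizontal) and with the GC and length trend removed (vertical), coloured by the GC content (%) of the longest transcript, with the dashed line marking equal values. GC-rich members such as PFKL, GAPDH and SLC16A3 lie below the line and GC-poor ones such as PDK1 above it; all members that fell by 1 or more stay in the lower left.

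The neighbouring pathways were read from lists of other sugar and pyruvate genes, which named 110 genes of the table, 69 of them tested. Of these, 17 (24.6%) were called lower and 22 (31.9%) higher, beside 24.2% and 26.6% of all tested genes, and their median log2 fold change was 0.08. Among further transporters and isoforms, 6 of 17 fell and 5 rose. With the trend removed 4 were lower and 3 higher, beside 18.4% and 21.2% of all genes in that fit. SLC2A8 and SLC2A6, sugar transporters of internal membranes, rose by 1.13 (limma, adjusted p = 0.00562) and 1.00 (adjusted p = 0.011). With the trend removed these values were 0.56 and 0.35. PDHX, which anchors DLD in the pyruvate dehydrogenase complex, fell from 10.7 ± 0.313 to 6.29 ± 0.308 (log2 fold change -0.69, adjusted p = 0.000721).

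In the glycogen list, 3 of 9 tested genes fell (33.3%) and 2 rose (22.2%), beside 24.2% and 26.6% of all tested genes. With the trend removed 4 were lower and 1 higher, beside 18.4% and 21.2% of all genes in that fit. PPP1R3B, a targeting subunit that activates glycogen synthase (-0.94, adjusted p = 0.00063), and GBE1, the branching enzyme (-0.83, adjusted p = 0.00136), fell the most, and PYGB, the brain-type phosphorylase, and PPP1R3D rose by 0.37 and 0.32 (adjusted p = 0.00692 and 0.0248). With the GC and length trend removed PYGB stood at -0.01 and PPP1R3D at 0.22, and neither was called. The call of PPP1R3D was also lost without any 1 siPSCA library, with no minimum FPKM and with the replicate block. Of 10 tested genes for gluconeogenesis, NADH shuttles and transaminases, 1 fell and 3 rose, and with the trend removed 3 were lower and 5 higher. PC, which carboxylates pyruvate, rose by 0.71 (adjusted p = 0.002) and ME1, the cytosolic malic enzyme, by 0.38 (adjusted p = 0.00372), whereas GOT1, the cytosolic aspartate transaminase, fell by 0.16 (adjusted p = 0.0211), a call kept in only 1 of 6 fits made without 1 library. These were 0.25, 0.61 and -0.36 with the trend removed.

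The tricarboxylic acid cycle, into which the pyruvate gate feeds, had 1 of 16 genes lower (6.2%), 4 higher (25.0%) and 11 not called. Of all tested genes, 24.2% were called lower and 26.6% higher. The risers with the largest change were MDH2 (0.40, adjusted p = 0.0117), the mitochondrial malate dehydrogenase, and OGDH (0.37, adjusted p = 0.00264), of the oxoglutarate dehydrogenase complex, which stood at 0.23 and 0.09 without a call once the trend was removed. SUCLA2, a succinyl-CoA ligase subunit, was called lower (-0.24, adjusted p = 0.0127) but lost the call without siPSCA 1 and stood at 0.05 after removal of the trend. With the trend removed, 1 of the 16 genes was lower and 4 were higher, beside 18.4% and 21.2% of all genes in that fit. MDH2, OGDH and SUCLA2 were not among them. Of 17 tested genes for entry of fructose, galactose, mannose and hexosamines, 6 fell (35.3%) and 8 rose (47.1%), and with the trend removed 6 were lower and 3 higher, beside 18.4% and 21.2% of all genes in that fit. AKR1B1, the aldose reductase, rose by 0.68 (adjusted p = 0.00546) and TKFC, a triokinase, by 0.64 (adjusted p = 0.0069), while UAP1 (-0.78, adjusted p = 0.000705) and GFPT1 (-0.69, adjusted p = 0.00159) fell. With the trend removed TKFC stood at 0.39 and GFPT1 at -0.34, and both were called.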

How the data were processed

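RNA of HCT116SCs was sequenced in 3 NC and 3 siPSCA libraries, grouped by the sample labels. The authors deposited 1 table of FPKM (fragments per kilobase of exon, scaled to the size of the library) for 58735 genes; the aligner, the counting program and the handling of strand are not given in the sources used here, and GRCh38 is the build in the submitters' processing notes. All 58735 gene positions were those of GENCODE 29. FPKM multiplied by gene length gave whole reads for 100.0% of values within 0.01 reads. The reads were used for depth and for limma-voom. Intervals are 95% confidence intervals of the log2 fold change from limma, and they rest only on the spread between these libraries.

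Values were analysed in limma 3.58.1 (R 4.3.3) and with numpy 2.4.6, pandas 2.3.3 and matplotlib 3.10.9 under Python 3.11.15. The limma model (lmFit, eBayes with a trend, 2-sided) was fitted to log2(FPKM + 1) wherever the mean FPKM over the 6 libraries reached 1, with group as the only term. It was also run on simulated counts. These held no GC trend and no outlying library, so that run cannot speak to either feature of the real data. GC content was that of the longest transcript. The members and lists were chosen with earlier results of these data known. Library values are given for members with an absolute log2 fold change of at least 1, the most abundant member of each role and members of paralog families with opposite signs, and for G6PC3, named after its values were seen. In each other list the 2 largest changes in each direction are named among called genes. Alternatives covered the pseudocount, the minimum FPKM, scaling, limma-voom, the GC and length trend, the call rule, each library and the replicate number. The fit with the trend removed and NC 3 left out was chosen after seeing the data. PSCA lay under the minimum.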

Additional observations from a re-analysis of the deposited data

How the results depend on the processing

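Of 634 values of single members under the alternatives, 516 moved by less than 1 SD between replicates, 118 moved by more and 0 changed sign among called members; of 284 for 18 genes named from the other lists (GFPT2, GNPNAT1, SORD and KHK not among them), 259 kept their call, 20 lost it and 5 changed sign. These 5 were PYGB at -0.014 with the GC and length trend removed, with or without the replicate block, and SUCLA2 at 0.054 in both of these and at 0.046 with NC 3 left out too. The cause was not tested. With a minimum FPKM of 5, fewer genes were tested and 2140 genes were called lower, 11 of the other sugar and pyruvate genes were called lower, and the members' median log2 fold change was -0.24. It was -0.23 with TPM, -0.19 with median-ratio scaling, -0.20 with limma-voom, -0.37 with the trend removed and -0.35 with the trend removed and without NC 3. Members called higher numbered 8 with the trend removed and 10 when NC 3 was left out as well. The median of the other sugar and pyruvate genes was 0.0091 with no minimum, 0.041 with TPM, 0.033 with the trend removed and 0.048 without NC 3 as well. With an unadjusted p under 0.05 and an absolute log2 fold change over 0.5, 1407 genes were lower and 2027 higher, and 7 of the other sugar and pyruvate genes were lower and 7 higher. Leaving out 1 library at a time gave 2328 to 3411 genes lower, 2299 to 4014 higher (2299 without siPSCA 1 and 2402 without siPSCA 2), 17 to 19 members lower, 2 to 7 higher (7 without NC 3) and member medians of -0.23 to -0.18. For the other sugar and pyruvate genes it gave 9 to 18 lower (9 without siPSCA 1, 11 without siPSCA 2), 14 to 26 higher (14 without siPSCA 1) and medians of 0.06 to 0.10. HKDC1, TIGAR and PDK4, with at most 100 reads in any library, could not show small changes at this depth.

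The replicate numbers gave no clear pairing of the libraries: deviations of same-numbered libraries correlated at 0.0956, 0.0133 and 0.134. NC 1 and NC 3 correlated best with their own number, and NC 2 did not (0.0363 with siPSCA 1). So few libraries cannot settle whether they were paired. With the replicate block 3153 genes were called lower and 3572 higher, 18 members lower and 3 higher; HK1 lost its call and PGM2 gained one. With the block and the trend removed, 2197 genes were lower, 7 members were higher (DLD was no longer called), the members' median was -0.37, and 14 of the other sugar and pyruvate genes were higher with a median of 0.033. Count models from edgeR and DESeq2 were not run, since the deposited values are FPKM.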

Other observations

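The hexosamine pathway branches off at fructose phosphate, the product of GPI, and makes UDP-N-acetylglucosamine, the sugar donor for protein glycosylation. Its genes were singled out after their values were seen. GFPT1 and GFPT2, the entry enzymes, fell by 0.69 and 0.42 on the log2 scale (limma, adjusted p = 0.00159 and 0.00187), from 29.1 ± 3.06 to 17.6 ± 0.367 and from 6.14 ± 0.142 to 4.34 ± 0.10 FPKM (SD, n = 3). GNPNAT1, the acetyltransferase (-0.50, adjusted p = 0.00791), PGM3, the mutase (-0.77, adjusted p = 0.000733), and UAP1, the pyrophosphorylase that ends the pathway (-0.78, adjusted p = 0.000705), fell as well. The siPSCA libraries lay below all NC libraries in each of the 5 genes, from which nothing is read, since the genes were picked for their values. After removal of the GC and length trend all 5 were still called lower, with values from -0.73 (UAP1) to -0.26 (GNPNAT1).

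A further 2 genes of the list for sugar entry are given as values, also picked after these were seen. SORD, which oxidises sorbitol to fructose, rose from 12.9 ± 1.12 to 18.3 ± 0.714 FPKM (0.48, adjusted p = 0.00342), and KHK, the ketohexokinase, from 1.61 ± 0.161 to 2.63 ± 0.0815 (0.48, adjusted p = 0.00457). With the trend removed SORD stood at 0.50 and was called, and KHK stood at 0.08 and was not.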
